A study of Mus musculus with 4 samples.

Results

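In bone marrow of 5TMM mice, an immunocompetent myeloma model, 10 genes with well known roles outside the plasma cell lineage were followed. They are Rhox5, Afp, Epcam, Mt1, Mt2, Trpc1, Trdn, Prdm6, Csn3 and Abcg1, 10 of the 32285 genes counted. They were chosen by their raw UMIs, that is, counts of individual captured transcripts, in cells of the myeloma clone against other cells, so that their levels across cell classes are given as a description. Clonal cells were those with at least 30 Ighg2b and fewer than 100 Igha UMIs, other plasma cells those with at least 50 Jchain and at least 100 Igha UMIs, and the rest were all other cells. Of 39743 cells that passed the quality filter, 223 were clonal, 148 were other plasma cells and 39372 were all other cells.

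All 4 mice had received 5TGM1-luc myeloma cells intravenously as C57BL/KawRij mice of 6 weeks and were treated from 3 weeks later. Both vehicle mice and both PM mice (Purinostat Mesylate, a selective inhibitor of class I and IIb histone deacetylases, 10 mg/kg) gave 1 single-cell library each, 24 h after treatment. Erythrocytes were lysed before capture, and the myeloma cells of all mice came from 1 transplanted line. The question was which cells carry these transcripts, how evenly they are spread in the clone, and whether their levels differed after PM.

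The libraries held 69828595 to 109447030 UMIs in 8242 to 13848 barcodes, and the clonal cells 33, 33, 119 and 38 per mouse in the order vehicle 1, vehicle 2, PM 1 and PM 2, which is used for all values below. Their sums were 993090, 1330449, 3764392 and 1451006 UMIs, so that PM 1 was measured most finely. Of 41226 distinct barcodes, 166 occurred in more than 1 library, 1 of them that of a clonal cell. All 8 plasma cell markers were detected in the clonal cells, but unevenly. Sdc1, the plasma cell surface proteoglycan, stood at 272 to 418 CPM (counts per 1e6 UMIs) against 225 to 291 in other plasma cells. Jchain, the joining chain of secreted antibody polymers, stood at 2783 to 9261 against 67378 to 73715. Mzb1, Derl3, Tnfrsf17 and Prdm1 were also lower in the clonal cells, without overlap of the mice. The ranges of Sdc1, Xbp1 and Irf4 overlapped between the 2 classes. These levels cover a mixed gate, described below. Jchain had a median of 646 UMIs in its 43 cells with over 20% immunoglobulin and 17.5 in the 180 others. The marker comparison was not made for the 180 alone. Summed neutrophil markers were 19996 CPM in the clonal cells of PM 1 and 1427 to 7204 in the other mice.

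As background, Rhox5 is an X-linked homeobox gene of testis, epididymis and placenta, and Afp encodes the main plasma protein of the fetal liver and yolk sac. Epcam encodes an adhesion molecule of epithelia, and Csn3 the kappa-casein of milk. Trdn encodes triadin, which anchors calsequestrin to the ryanodine receptor in muscle, and Trpc1 a subunit of cation channels. Prdm6 is a transcriptional regulator of smooth muscle, Mt1 and Mt2 encode metallothioneins, small cysteine-rich proteins that bind zinc and other metals and are induced through the zinc-sensing factor Mtf1, and Abcg1 exports cholesterol, best known from macrophages.

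Mt1 and Mt2 lie side by side on chromosome 8, at 94179082 to 94180327 and 94172664 to 94173568 (GRCm38, both on the plus strand), and had the highest correlation of the 4 pairs of members compared in single cells, so the 250 bases upstream of each RefSeq start are shown. Capitals mark the 7-base cores of metal response elements, TGCACNC and TGCGCNC, on either strand, from windows chr8:94178839-94179088 for Mt1 and chr8:94172368-94172617 for Mt2 (GRCm38.p6).
Mt1: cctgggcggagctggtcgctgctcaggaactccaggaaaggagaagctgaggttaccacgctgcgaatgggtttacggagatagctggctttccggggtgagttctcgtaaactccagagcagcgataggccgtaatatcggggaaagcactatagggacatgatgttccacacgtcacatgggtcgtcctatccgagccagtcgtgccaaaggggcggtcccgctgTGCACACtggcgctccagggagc
Mt2: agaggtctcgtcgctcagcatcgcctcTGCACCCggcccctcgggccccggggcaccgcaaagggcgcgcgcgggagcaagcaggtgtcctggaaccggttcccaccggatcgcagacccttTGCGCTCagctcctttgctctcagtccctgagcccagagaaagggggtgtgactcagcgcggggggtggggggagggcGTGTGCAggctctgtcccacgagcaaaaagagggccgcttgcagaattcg
The Mt2 window held 3 cores and the Mt1 window 1. Of 32851 such windows, 21.4% held at least 1 and 1.26% at least 3. With the first 50 transcribed bases added, Mt2 had 4 and Mt1 3, against 1.97% of windows with at least 3. The Mt2 window ended at 94172617, before the gene position starting at 94172664. That of Mt1 ended at 94179088, past the gene position starting at 94179082. Counts of cores in such windows depend on the start used and do not rank the 2 genes. RefSeq windows were also matched for Rhox5, Afp, Epcam and Trpc1. That of Rhox5 (chrX:37754358-37754607) belongs to a start upstream of the gene position given below and does not adjoin it. The Afp, Epcam and Trpc1 windows held no core and the Rhox5 window 1. CpG dinucleotides numbered 21 for Mt2, 17 each for Mt1 and Trpc1, 8 for Epcam, 4 for Rhox5 and 1 for Afp, with a median of 6 over all windows.

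The clonal gate held more than 1 kind of cell, and several members were found on 1 side only. Cells were clustered on the 2500 most variable genes, with the members not left out. Of the 223 gated cells, 169 fell in a plasma cluster that held no other plasma cell of the Igha gate. Another 48 fell in the plasma cluster that held 146 of those 148 other plasma cells. A mono&prog cluster (monocytes and their progenitors) held 4, a neutrophil cluster 1 and an unnamed one 1. Rhox5, Afp and Mt2 were among the leading genes of the first cluster, so it is no separate evidence on the members. Whether the gated cells outside the first cluster belong to the myeloma clone was not tested, and "clonal" below means the gate. Immunoglobulin transcripts took over 20% of UMIs in 43 of the 223 cells, with a median of 53.8%, and at most 20% in 180, with a median of 4.75%. Only 2 cells lay between 15% and 25%. Igkv10-96 was the leading light-chain V gene in 159 of the 180 cells and in none of the 43. The median of Jchain was 646 UMIs per cell in the 43 and 17.5 in the 180. Among the 180, PM 1 also held cells at 0.637% and 0.668% immunoglobulin with no Rhox5 or Afp UMI.
Rhox5, Afp, Trdn, Prdm6 and Csn3 had no UMI in any of the 43 immunoglobulin-rich cells, although these had a median depth of 19957 UMIs. A count of 0 in 43 cells allows a share of up to 6.98% of cells with a UMI. Among the 180 others, whose median depth was 34307.5 UMIs, Rhox5 was detected in 168, Afp in 156, Trdn in 140, Prdm6 in 96 and Csn3 in 54. Trpc1 was detected in 130 of the 180 and in 1 of the 43. Epcam, Mt1 and Mt2 were found on both sides, in 27, 31 and 26 of the 43 immunoglobulin-rich cells. The split at 20% was chosen after the data were seen. The share of immunoglobulin-rich cells was 33.3%, 15.2%, 16.0% and 21.1% per mouse, highest in vehicle 1. That mouse had the lowest clonal level of Rhox5, Afp, Epcam, Mt1 and Mt2 and the highest of Trpc1 and Abcg1. Its Epcam level was 166 CPM on both sides of the split.

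**Figure D1:**
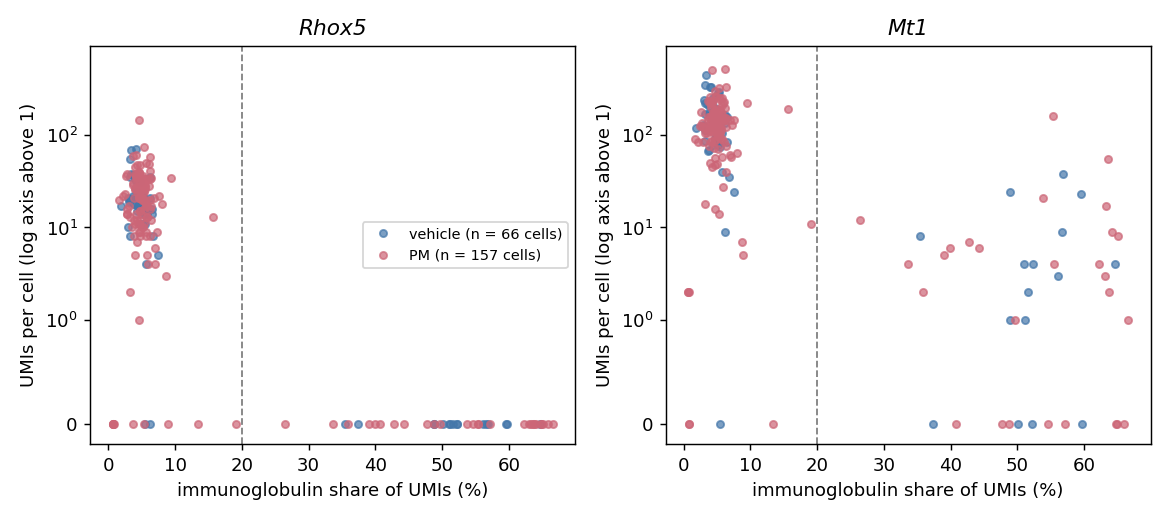
UMIs of Rhox5 (left) and Mt1 (right) per cell against the share of immunoglobulin UMIs (%), for 66 vehicle and 157 PM cells of the clonal gate; each point is a cell and the dashed line marks 20%. Rhox5 is at 0 in all 43 cells right of the line, where Mt1 is still detected in 31.

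Rhox5, Afp, Trdn and Prdm6 had no UMI in other plasma cells. Clonal Rhox5 levels were 395, 505, 615 and 428 CPM, and 603, 543, 672 and 521 CPM in the 180 cells. All other cells lay at 0.0237 to 0.345 CPM. Against a floor of 3 counts over the other plasma cells (1.20 CPM), the pooled clonal level of 530 CPM was at least 441-fold higher. Intervals and floors here cover counting error only.

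Afp stood at 144, 244, 253 and 252 CPM in the clonal cells, with vehicle 1 below the other 3 mice, and at 220, 263, 277 and 307 in the 180 cells. The pooled level was at least 197-fold above other plasma cells. Trdn stood at 68.5, 69.1, 74.1 and 42.0 CPM, and at 105, 74.4, 81.1 and 51.1 in the 180 cells, and was at least 55.2-fold above other plasma cells. Prdm6 was the lowest of these, at 21.1, 11.3, 20.99 and 35.8 CPM, with 32.3, 12.1, 23.0 and 43.6 in the 180 cells, and at least 18.4-fold above. Vehicle and PM mice overlapped for Rhox5, Trdn and Prdm6, whereas for Afp both PM mice lay just above vehicle 2. In the 180 cells vehicle 1 was highest for Trdn.

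The 4 genes differed outside the plasma lineage. Of all Trdn UMIs in the series, 99.2% came from clonal cells, and only 4 were found among all other cells, 6 for Prdm6 and 67 for Rhox5. Afp had 296 UMIs there. Clonal cells held 2.24 Rhox5 UMIs per Afp UMI, but HSPC 0.0745, with 7 Rhox5 and 94 Afp UMIs, and T cells 0.0278, with 1 and 36. Erythroid cells (4 and 2 UMIs) stood at 2.0, eosinophil and basophil progenitors (1 and 1) at 1.0 and neutrophils (15 and 18) at 0.833, and plasma-like cells in neither gate had 15 Rhox5 and 22 Afp UMIs. Macrophages had 18 Afp UMIs and no Rhox5 UMI, at a pooled Afp level of 15.3 CPM, with 10.9 CPM in the lowest and 18.0 CPM in the highest mouse. An Afp UMI was found in 0.109% of neutrophils, at a median depth of 6044 UMIs. It was found in 3.87% of HSPC at 20212.5 UMIs and in 1.80% of T cells at 3541 UMIs. The part of free RNA in these low levels was not tested.

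Epcam, Mt1, Mt2 and Trpc1 were also highest in the clonal cells of every mouse but were detected more widely in other cells. The part of free RNA in those levels was not tested. Clonal Epcam levels were 166, 250, 175 and 187 CPM, and other plasma cells had 26.4, 26.6, 27.5 and 22.6 CPM, a pooled ratio of 7.26 (95% exact interval of counting error 5.66 to 9.46). Plasma-like cells that met neither gate had 113, 122, 88.4 and 55.3 CPM. They also held the Rhox5 and Afp UMIs given above, and whether some of them belong to the clone was not tested. Among the other named types DC (1 cluster of dendritic cells, led by Siglech) came first at 18.6 CPM. Its range over mice overlapped that of other plasma cells. B cells at 6.51 and T cells at 6.35 followed, and their ranges over mice overlapped. No Epcam UMI was found in 519 macrophages or 207 CAR cells (stromal cells rich in Cxcl12). Epcam was the member least different between the sides of the gate, with 106 CPM in the immunoglobulin-rich cells and 202 in the others.

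Mt1 levels were 2157, 4127, 3382 and 3468 CPM in clonal cells. Mt2 levels were 1814, 2997, 2315 and 2861 CPM. Vehicle 1 was lowest for both genes, and within the 180 cells the 4 mice came closer, at 3215 to 4382 for Mt1 and 2521 to 3401 for Mt2. Plasma-like cells in neither gate had pooled levels of 806 CPM of Mt1 and 351 of Mt2. Per mouse their Mt1 level was 10.8, 815, 1317 and 918 CPM. Among the other named types erythroid cells and their progenitors were highest, with 384 CPM of Mt1 and 344 of Mt2, and other plasma cells with 294 and 166, the Mt1 ranges of both overlapping over mice. HSPC and mono&prog had Mt1 with little Mt2, at 257 against 5.52 CPM and 125 against 1.62 CPM. Cell types thus differed in the balance of the genes, which were near each other in clonal and erythroid cells. Trpc1 levels were 59.4, 46.6, 35.3 and 35.8 CPM in clonal cells, and 90.8, 50.1, 38.6 and 42.8 in the 180 cells, followed by DC at 9.63 CPM and CAR cells at 7.48 CPM, the latter from 5 UMIs. Neutrophils had no Trpc1 UMI in 16458 cells.

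Abcg1 went against the common name of these genes. Its clonal levels of 46.3, 21.8, 29.0 and 19.99 CPM overlapped those of all other cells at 21.4, 23.1, 24.8 and 27.1 CPM. In the 180 cells they were 70.8, 21.01, 30.5 and 23.5 CPM. Among named classes macrophages were highest at 128 CPM, with 88.7 CPM in the lowest mouse, then T cells at 60.4 and B cells at 57.9, which did not differ beyond their spread over mice, and clonal cells were at place 7 of 13 at 28.3 CPM. The 7846 cells of 4 unnamed clusters, outside this order, had 63.9, 78.0, 87.2 and 93.8 CPM. Abcg1 was nonetheless above other plasma cells in each mouse, at 2.20 to 8.67 CPM there, and 205 of its 213 clonal UMIs came from the 180 cells. Csn3, at 3.02, 0, 81.0 and 9.65 CPM, had most of its UMIs in 1 mouse.

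**Figure D2:**
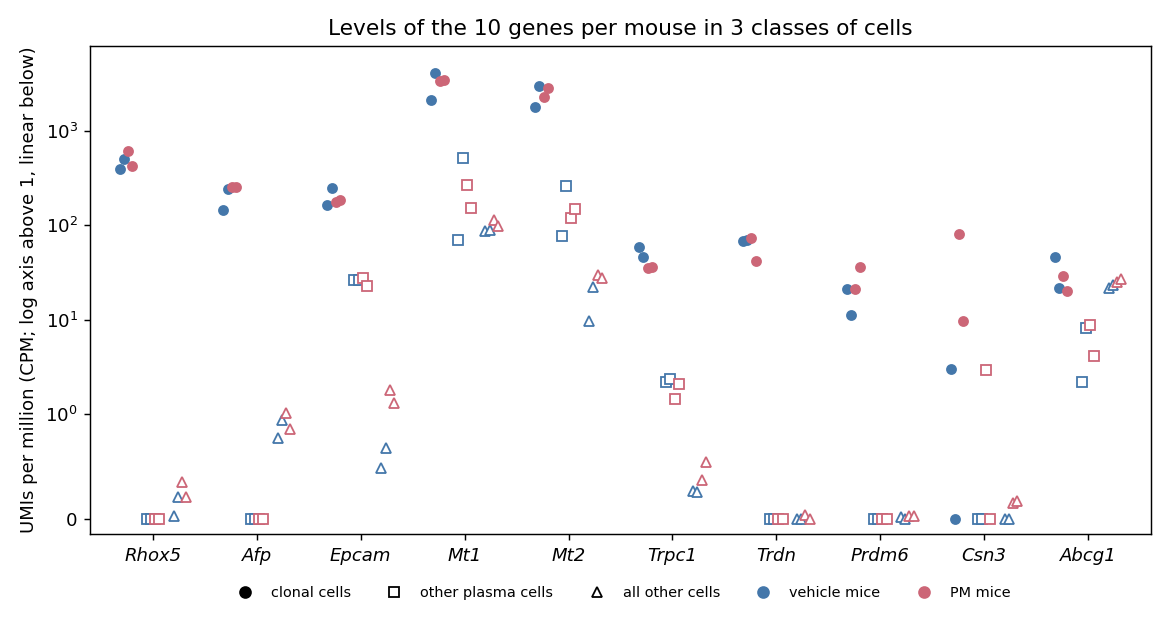
Level of each gene (CPM, log axis above 1 and linear below) in clonal, other plasma and all other cells; each symbol is 1 of 4 mice, blue for vehicle and red for PM. Clonal symbols lie above both other classes for 8 genes, and those of Csn3 and Abcg1 overlap them.

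For 8 of the 10 members the lowest clonal mouse lay above the highest mouse of both other classes, Csn3 and Abcg1 being the exceptions. Among 7779 genes at 10 CPM or more in clonal cells, 32.4% did so, and the rule used this contrast, so nothing is read from the count. Places among those genes by the pooled ratio of clonal to all other cells use the same contrast and are a description. Trdn came first, Rhox5 at place 4, Prdm6 at place 19, Csn3 at 42 and Afp at 62. Epcam came at 70, Trpc1 at 84, Mt2 at 87, Mt1 at 149 and Abcg1 at 3887. The ratio of Trdn rested on 4 UMIs in all other cells, with an interval of counting error of 2106 to 19995. It overlapped those of Rhox5 (2036 to 3350) and Prdm6 (544 to 3340), so the order of these genes is not settled.

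**Figure D3:**
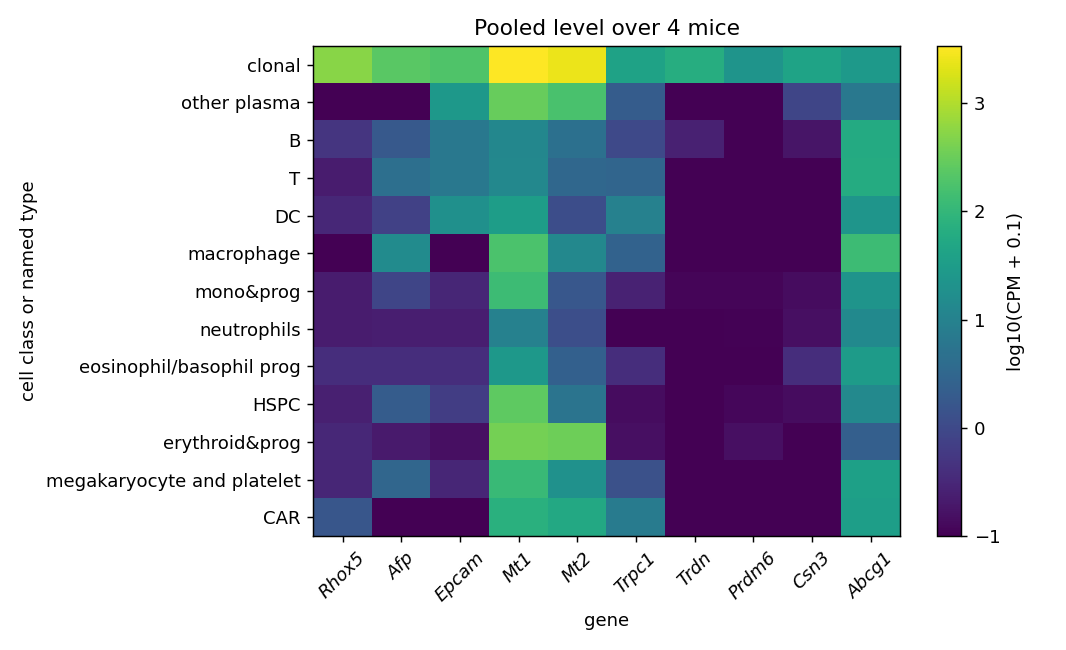
Pooled level over 4 mice, as log10(CPM + 0.1), of the 10 genes (columns) in clonal cells, other plasma cells and 11 named cell types (rows). The clonal row is brightest for every gene except Abcg1, which is highest in macrophages, and Mt1 and Mt2 are bright in erythroid cells too.

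Within the clonal gate, detection was compared after each cell was thinned to 10000 UMIs, which kept 207 of the 223 cells. At that depth Mt1 was found in 87.1%, 100%, 92.9% and 94.1% of cells and Rhox5 in 67.7%, 90.0%, 81.3% and 79.4%. In the 172 cells with little immunoglobulin that were deep enough, Rhox5 was found in 94.8% to 100% of cells per mouse, Afp in 72.9% to 85.7%, Epcam in 66.7% to 89.3%, Trdn in 29.6% to 76.2%, Trpc1 in 25.9% to 66.7% and Prdm6 in 11.1% to 32.1%. Mean thinned counts in these cells were 5.22 to 6.52 per mouse for Rhox5 but 0.111 to 0.643 for Prdm6. A share at fixed depth falls with the mean count, so these shares cannot decide which genes were spread more evenly. Among the 159 cells led by Igkv10-96, thinned alike, Rhox5 was found in 157, or 96.3% to 100% per mouse. Thinned other plasma cells held Epcam in 16.2% to 27.5% of cells and no Rhox5, Afp, Trdn or Prdm6.
Thinned clonal cells carried 5.00, 5.43, 5.21 and 5.24 of the 10 genes on average, those with little immunoglobulin 6.62, 5.33, 5.73 and 5.86, and unthinned ones 5.82, 6.21, 6.46 and 6.39. The difference between PM and vehicle was 0.00366 ± 0.217 genes per cell (SE, 2 mice per group, exact two-sided permutation p = 1), and with 2 mice per group that test cannot go below 0.333.

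Only 4 pairs of members were compared from cell to cell, and Mt1 and Mt2 had the highest correlation of these. Over the 21, 27, 96 and 28 thinned cells with little immunoglobulin, their Pearson correlation was 0.69, 0.74, 0.67 and 0.70 in the 4 mice. The correlation of Rhox5 and Afp was 0.13, 0.28, 0.35 and 0.47, that of Mt1 and Rhox5 0.20, 0.08, 0.39 and 0.17, and that of Epcam and Afp 0.30, -0.10, -0.03 and -0.02. Cells of a mouse share a library, and these values are a description. The lowest mean thinned count of Mt1 or Mt2 was 25.6, for Mt2 in PM 1. The highest of Rhox5, Afp or Epcam was 6.52, for Rhox5 in vehicle 1. Counting error lowers a correlation more at low counts. The values therefore cannot decide whether Mt1 and Mt2 varied together more closely than the other pairs. The variance of Rhox5 counts was 1.01 to 1.97 times the mean, and that of Mt1 counts 6.15 to 7.52 times the mean. Mt1 had the higher mean count in every mouse, and at equal relative spread this ratio rises with the mean. These ranges therefore cannot decide which of the genes was spread more evenly.

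Csn3 differed most between mice. Among the 180 cells it was detected in 3 of 22, 0 of 28, 45 of 100 and 6 of 30 cells per mouse. The clonal sums held 3, 0, 305 and 14 UMIs, and the 0 in vehicle 2 allows up to 2.25 CPM at its depth. In PM 1 the highest cell had 37 Csn3 UMIs, and 13 cells with 10 or more held 199 of the 305, or 65.2%. The PM mice were thus both above the vehicle mice, but they differed from each other by more than PM 2 differed from vehicle. Csn3 had no UMI in vehicle cells outside the clonal gate. All other cells of PM 1 and PM 2 had 16 and 12, and 12 of these 28 were in plasma-like cells that met neither gate.

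**Figure D4:**
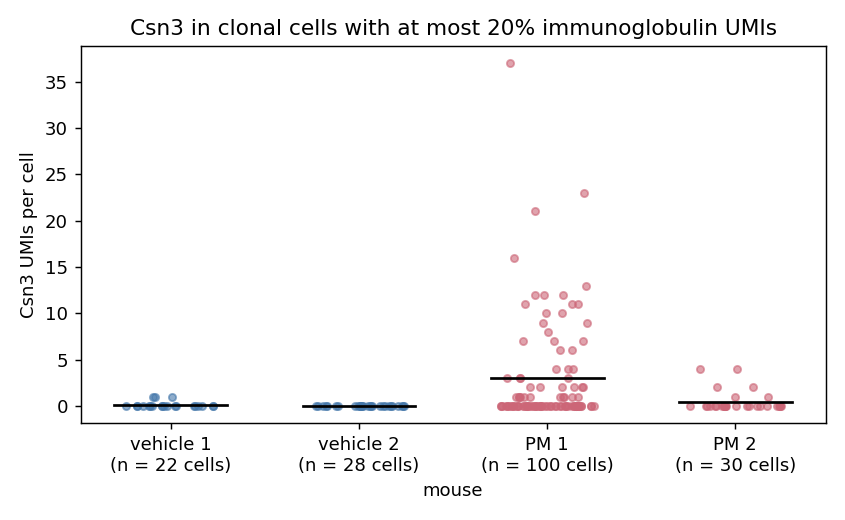
Csn3 UMIs per cell in the 180 clonal cells with at most 20% immunoglobulin UMIs, by mouse; each point is a cell (22, 28, 100 and 30 cells) and the line is the mean. Cells with 10 or more UMIs occur in PM 1 only.

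PM and vehicle were then compared in clonal cells with summed counts over all genes, by edgeR's quasi-likelihood test with Benjamini-Hochberg adjustment, and a gene counted as called where its adjusted p was under 0.05 and its log2 fold change exceeded 0.5 in size. None of the 10 members was called, against 0.0232% of 8618 genes tested, that is, 0 higher and 2 lower. Both lower genes, Igkv14-111 and Igkv12-46, are light-chain V genes (named after their values were seen). The gate behind these calls included the 43 immunoglobulin-rich cells, none of them led by Igkv10-96. In cells with at most 20% immunoglobulin, 0 genes were called lower and 13 higher. At an unadjusted p under 0.05, 265 genes were higher and 158 lower, and DESeq2 called 1 higher and 3 lower, none of them a member.

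The fitted changes of the 5 members with the most clonal UMIs were small. Rhox5 had a log2 fold change of 0.13 ± 0.23 (SE), Afp 0.30 ± 0.23, Epcam -0.29 ± 0.21, Mt1 0.05 ± 0.30 and Mt2 0.03 ± 0.28, each with an edgeR adjusted p of 0.999. Trdn had -0.30 ± 0.28, Prdm6 0.69 ± 0.42 and Abcg1 -0.52 ± 0.42, with the same adjusted p. Trpc1 was the member nearest to a call on the lower side, with -0.67 ± 0.25 and an unadjusted edgeR p of 0.0220 (adjusted p = 0.984). Both PM mice (35.3 and 35.8 CPM) lay below both vehicle mice (59.4 and 46.6 CPM), and no alternative called it.
Csn3 had 5.06 ± 2.32, the largest value and the largest error (edgeR adjusted p = 0.999). Without PM 2 the value was 5.80 and without PM 1 it was 2.64. Over 14 alternatives it ranged from 2.64 to 9.74, and 2 of them called it higher. The vehicle sums held only 3 and 0 Csn3 UMIs, so the size of the value rested on these few counts as well as on PM 1. In that mouse neutrophil markers in clonal cells were also highest, and Csn3 had 5.09 ± 2.53 (adjusted p = 0.915) without the clonal cells that held over 2% neutrophil transcripts.

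**Figure D5:**
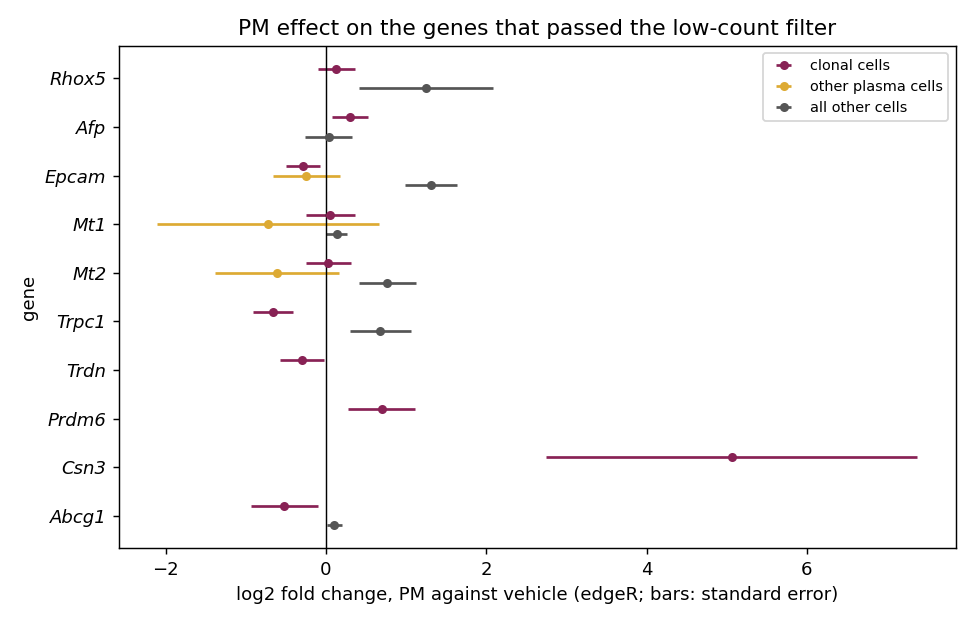
Log2 fold change, PM against vehicle (x axis, edgeR), of the members that passed the low-count filter in clonal, other plasma and all other cells; bars are standard errors, 2 mice per group. Csn3 in all other cells is left out because both vehicle mice are at 0, and no value shown passed the threshold.

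In other plasma cells 3 members passed the filter on low counts, and none was called (0.141% of 4251 genes were). Epcam had -0.25 ± 0.42, Mt1 -0.73 ± 1.38 and Mt2 -0.61 ± 0.78, with edgeR adjusted p of 0.999. Vehicle 1 and vehicle 2 lay far apart for Mt1, at 70.4 and 514 CPM. Without vehicle 1, Mt1 was called lower, at -1.57 (adjusted p = 9.17e-05), as was Mt2, and without vehicle 2 their signs turned, to 1.53 (adjusted p = 0.0213, called higher) and 0.70.

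In all other cells 8 members passed, and none was called (0.0131% of 15325 genes were called by edgeR, 2 higher and 0 lower, and 1375 and 646 had an unadjusted p under 0.05). Csn3, with 0 UMIs in both vehicle mice there, ranged from 5.88 to 6.74 over 8 alternatives and was called under 1. Epcam came closest among those measured in every mouse. Its levels were 0.487 and 0.672 CPM in vehicle and 1.77 and 1.30 CPM in PM mice, without overlap, a log2 fold change of 1.31 ± 0.32 (edgeR adjusted p = 0.273). Mt2 had 9.70 and 22.1 against 29.5 and 27.8 CPM, a log2 fold change of 0.77 ± 0.36 (adjusted p = 0.430), and Mt1 0.13 ± 0.14. Without vehicle 2, Mt2 was called at 1.35 (adjusted p = 0.0230). Abcg1 (0.10 ± 0.09) and Afp (0.03 ± 0.29) were near 0. Of the Mt2 UMIs in all other cells, erythroid cells held 701 of 817, 1320 of 1478, 2578 of 3081 and 1632 of 1996. They numbered 147, 300, 322 and 375 cells per mouse. Within erythroid cells Mt2 stood at 363 and 260 CPM in vehicle and 415 and 334 CPM in PM mice. The part of cell composition in the Mt2 values of all other cells was not tested.

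Among named cell types, 33 pairs of member and type could be tested over 11 types, and 2 were called, both higher after PM. Of all genes tested, 3.19% were called in B cells, 0.731% in mono&prog, 0.317% in HSPC, 0.244% in macrophages, 0.107% in CAR cells, 0.0855% in erythroid cells, 0.0808% in T cells and 0.0% in the eosinophil and basophil and the megakaryocyte classes. In DC, Epcam rose from 2.99 and 9.10 CPM to 27.0 and 32.9 CPM, a log2 fold change of 2.25 ± 0.47 (edgeR adjusted p = 0.0328), where 0.729% of 9053 genes were called and 0.718% were called higher. These levels rest on 3, 10, 42 and 30 UMIs in 116, 143, 203 and 131 cells. The DC class was 1 cluster, with Siglech and Ccr9 among its leading genes. An unnamed cluster of 640 cells, led by Cd209a and also scoring highest for DC markers, had 0.578 CPM of Epcam. The values thus cover the Siglech cluster and not all dendritic cells. The Epcam call was lost with DESeq2 (2.27, adjusted p = 0.387) and without vehicle 1 (1.67, adjusted p = 0.0683). Neutrophil markers in those DC took 3.27% and 3.94% of UMIs in vehicle and 6.68% and 3.67% in PM mice, and their part in the result was not tested. Mt1 in DC was called lower without vehicle 2 only (-2.59, adjusted p = 0.0353 by edgeR), among the fits that leave out 1 mouse.

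In neutrophils, Abcg1 rose from 10.3 and 8.59 CPM to 18.8 and 18.2 CPM, on 405, 219, 644 and 474 UMIs. The groups did not overlap, and the log2 fold change was 0.87 ± 0.14 (edgeR adjusted p = 0.00518, 5.76% of 11699 genes called, 5.0% higher). It was called in every alternative run, including DESeq2 (0.84, adjusted p = 0.00163) and each fit without 1 mouse, where the lone mouse of a group is assumed to vary like the other group. In macrophages, where its level was highest, Abcg1 had -0.70 ± 0.31 (adjusted p = 0.753), and in clonal cells -0.52 ± 0.42. Whether these changes differ from that in neutrophils was not tested. Outside the neutrophil class, unnamed clusters of 2812 and 4153 cells had 113 and 52.9 CPM of Abcg1. Acod1 was among the leading genes of both and of a named neutrophil cluster. Over all unnamed cells, neutrophil markers took 21.5%, 16.8%, 24.4% and 25.7% of UMIs per mouse. Whether the cells of these clusters are neutrophils, and the PM effect in them, was not tested. Median depth in the neutrophil class was 6920, 7165, 5245.5 and 5758 UMIs per mouse. The part of a shift in maturity within that class was not tested. Mt2 had a positive value in the 6 types in which it passed the filter on low counts, none of them called, with 1.96 ± 0.46 in mono&prog (adjusted p = 0.0999), whose levels were 0.734 and 0.417 CPM in vehicle and 2.83 and 1.79 CPM in PM mice. Leaving out 1 mouse called it higher in HSPC, megakaryocytes and platelets, and neutrophils. CAR cells, where it did not pass the filter, went the other way, with 185 and 50.9 CPM in vehicle and 26.1 and 19.9 in PM mice on 5 to 20 UMIs each. DESeq2 gave -2.24 there (unadjusted p = 0.0333), and edgeR called it lower without vehicle 2 (-2.88, adjusted p = 0.0474).

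The PM effect in clonal cells was compared with that in all other cells as an interaction, with the mouse as a block. No member was called, and 1 of 14978 genes was (0.00668%), with 768 higher and 120 lower at an unadjusted p under 0.05. The median of all genes was 0.18 on the log2 scale, and 0.08 with RLE normalization. Epcam had a difference of -1.48 ± 0.28 (edgeR adjusted p = 0.284), and Mt2 -0.72 ± 0.21 (adjusted p = 0.581). Epcam was negative under all 13 alternatives and called under 6 of them, among them the 180 cells with little immunoglobulin (-1.50, adjusted p = 1.04e-04), whereas RLE normalization (-1.58, adjusted p = 0.239) and limma-voom (-1.52, adjusted p = 0.680) did not call it. Mt2 was called under 3 of the 13 and Rhox5 under 2, each with a negative difference. All other cells are a mix of types, and the part of their composition in these differences was not tested.

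The nearest genes on the chromosome were read in the same cells. Up to 3 protein-coding neighbours were taken on each side in GENCODE vM21. Of the 53 that are no members, 24 had no UMI in clonal cells and 16 (30.2%) had at least 10 CPM, against 24.1% of all genes. Of those 16, 7 (43.8%) lay above both other classes in every mouse, against the 32.4% given above. Alb, which encodes albumin and lies 14135 bases from Afp (chromosome 5, 90490737 to 90508907, plus strand), and Afm, 10025 bases on its other side, had no clonal UMI. Trdn (chromosome 10, 33080554 to 33476709, plus strand) stood between Nkain2 and Clvs2, both without a clonal UMI. Csn3 (chromosome 5, 87925579 to 87932665, plus strand) had 5 measured neighbours, all without one.
Rhox5 (chromosome X, 37804842 to 37808876, plus strand) lies in the Rhox cluster. Its neighbour Rhox2h, 131565 bases away, stood at 73.5, 78.2, 89.5 and 106 CPM in clonal cells, with no UMI in other plasma cells and 18 in all other cells, whereas Rhox6, the gene next to Rhox5 on the other side, had none in the clone. Close to Mt1 and Mt2, Mt3, a metallothionein best known from brain, had 9.06, 5.26, 38.0 and 42.0 CPM, while Mt4 had 1 clonal UMI. Pls1, 2267 bases from Trpc1, stood at 65.9 ± 17.4 CPM (SD, n = 4) in clonal cells and 38.3 CPM in other plasma cells.

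Of 164 other genes of the members' families and tissues, in 10 lists, 81 had a clonal UMI and 36 (22.0%) reached 10 CPM, near the 24.1% of all genes. Of 26 further Rhox genes 3 had any clonal UMI and only Rhox2h reached 10 CPM, and of 21 germline genes none did. Of 22 liver genes only Zbtb20, a zinc finger repressor of Afp in liver, did, at 611 ± 91.5 CPM. Apoa2 stood at 8.99 ± 5.16 CPM. Of 18 epithelial genes 4 reached 10 CPM: Spint2, a protease inhibitor, at 121 ± 12.5, Cd9 at 16.7 ± 10.5, Grhl2, an epithelial transcription factor, at 12.5 ± 4.46, and Cldn7 at 10.4 ± 17.3, of which vehicle 1 alone had 36.3. Grhl2 was near absent elsewhere, at 0.0196 CPM in all other cells. Of 11 casein and mammary genes, Prlr, the prolactin receptor, stood at 51.4 ± 13.8 CPM and Stat5b at 24.5 ± 5.65. Other plasma cells had 33.2 CPM of Prlr and 30.9 of Stat5b. No other casein had a clonal UMI.

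Of 15 triad and sarcoplasmic reticulum genes 3 reached 10 CPM, Atp2a2 at 160 ± 21.2, Asph at 49.4 ± 16.3 and Cacna1s at 12.1 ± 7.51. Asph encodes the triadin relative junctin among other products. Other plasma cells had 63.1, 1.03 and 49.1 CPM of these genes, so Cacna1s was higher there. Of 13 measured TRPC and store-operated calcium genes 6 reached 10 CPM, led by Trpc6 at 84.0 ± 15.7 CPM, against 0.926 in all other cells. Of 11 metal-response genes 7 did, among them Slc30a5 at 80.3 ± 6.17, Gclc at 57.5 ± 11.2 and Mtf1 at 28.1 ± 3.69 CPM. Mtf1 stood at 8.69 CPM in other plasma cells and 39.6 in all other cells. Of 13 further PRDM genes 4 reached 10 CPM, led by Prdm1, the plasma cell regulator, at 101 ± 38.3 CPM. Of 14 ABCG family and sterol efflux genes 8 did, including Scd2 at 89.6 ± 28.1 and Abca1 at 39.4 ± 11.7.
No gene of these lists was called between PM and vehicle in clonal cells, higher or lower. Apart from the cell cycle list and the germline list, of which no gene was tested, the medians of the lists lay between 0.08 and 0.27 on the log2 scale. The nearest to a call was Mt3, with 2.42 on the log2 scale (edgeR adjusted p = 0.0889). All 12 cell cycle genes reached 10 CPM in the clone and were tested, with a median log2 fold change of -0.55 against 0.0017 over all genes, 7 of them at an unadjusted p under 0.05 and none called.

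The genes with the most similar levels to each member were found over 52 sums, 13 cell classes in 4 mice, by Pearson correlation of log2(CPM + 1). For Rhox5 and Trdn they were the olfactory receptor genes Olfr193 and Olfr194, with r of 0.98 for both with Rhox5 and 1.0 for both with Trdn, at 24.4 and 35.0 CPM in clonal cells. For Prdm6 they were Nlrp4f (0.99) and Rhox2h (0.99). These sums are mostly at or near 0 outside the clone, which sets the height of r.
The other members had lower values. Afp was most like Dock3 (0.88) and Liph (0.85), Epcam like Gpr55 (0.90) and Prlr (0.87), Mt2 like Cpeb3 (0.85), and Mt1 like Hdlbp (0.78) and Spire1 (0.73). Trpc1 was most like Cd209c (0.81) and Robo2 (0.78), Csn3 like Xist (0.86) and Nts (0.85), and Abcg1 like Itgav (0.82) and Arhgap25 (0.80).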

How the data were processed

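Bone marrow cells of 2 vehicle and 2 PM mice were profiled by droplet single-cell RNA-seq (10x 3' v3), 1 library per mouse. The authors aligned reads and counted UMIs with Cell Ranger, and the matrices they deposited hold raw UMI counts per gene and cell, not normalized. The study's methods name GRCm38, the submitters' processing notes GRCm39, Cell Ranger and STAR. Of the gene IDs, 99.6% were in GENCODE vM21 (GRCm38), which gave positions.
Cells with under 300 genes or over 20% mitochondrial UMIs were left out, and no doublet caller was run. Members and gene lists were chosen with earlier results of these data known, and the cluster-naming thresholds and the 20% immunoglobulin limit after the data were seen. Cell types came from clustering (scanpy 1.11.5, 2500 variable genes, 30 components, resolution 1, 28 clusters) and fixed markers, so names may differ from the study's. Counts were summed per mouse and class and tested with edgeR 4.0.16 (R 4.3.3) quasi-likelihood fits, with the Benjamini-Hochberg adjustment over all genes tested. DESeq2 1.42.0 and limma 3.58.1 were alternatives. The clonal sums held 993090 to 3764392 UMIs, and 3 counts equal 0.797 to 3.02 CPM in them. The edgeR fit was tested on counts simulated from the sums. In clonal cells it called 15% of genes changed by 1 on the log2 scale and 81% of those changed by 2. These shares were 13% and 84% in other plasma cells and 61% and 81% in all other cells. With no gene changed, 19 of 8618, 14 of 4251 and 3 of 15325 genes were called. A missing call in clonal or other plasma cells therefore does not exclude a change of 1 on the log2 scale. Named genes were the 10 members, up to 3 coding neighbours on each side, the 2 most alike genes each (1 of these is not reported here), and lists of related genes. Promoter sequences are from RefSeq (GRCm38.p6).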

Additional observations from a re-analysis of the deposited data

How the results depend on the processing

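Counts of called genes moved with most settings, while the members mostly kept their direction and their side of the threshold (342 of 384 values). In clonal cells (0 genes higher, 2 lower), 1 was higher with DESeq2, without cells holding neutrophil transcripts or with cells of at least 10000 UMIs, 48 with no filter on low counts, 26 in cells led by Igkv10-96 and 13 with at most 20% immunoglobulin. Lower genes then numbered 19 with no filter, 1 with at least 60 Ighg2b UMIs, in Igkv10-96 cells or without neutrophil transcripts, and 0 with at most 20% immunoglobulin. Leaving out 1 mouse gave 0 to 87 higher and 1 to 22 lower. In other plasma cells (3 and 3), no filter gave 29 and 22, and leaving out 1 mouse 19 to 42 and 16 to 30. In all other cells (2 and 0), DESeq2 gave 210 and 69, no filter 148 and 20, and leaving out 1 mouse 0 to 338 and 0 to 154. For the difference between clonal and all other cells (1 and 0), limma-voom gave 0 higher, no filter 201 higher and 29 lower, at least 60 Ighg2b UMIs 6 higher, Igkv10-96 cells 406 and 19, no neutrophil transcripts 139 and 10, at least 10000 UMIs 2 higher, at most 20% immunoglobulin 203 and 39, and leaving out 1 mouse 21 to 267 and 14 to 105. The cause was not tested. Calls of members in cell types (2) were 1 with DESeq2 and 2 to 6 without 1 mouse. The difference in members per cell was -0.183 with at most 20% immunoglobulin and -0.213 to 0.220 without 1 mouse.

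Signs turned for values near 0. In clonal cells Mt1 was -0.023 with at most 20% immunoglobulin, and Mt2 -0.0040 with at least 60 Ighg2b UMIs, -0.047 in Igkv10-96 cells and -0.048 with at most 20% immunoglobulin. Without 1 mouse, clonal Rhox5 was -0.16 to 0.35, Mt1 -0.28 to 0.48, Mt2 -0.23 to 0.33, Trdn -0.81 to 0.0029 and Abcg1 -1.06 to 0.19. In other plasma cells Mt1 was -1.57 to 1.53 and Mt2 -1.28 to 0.70, and in all other cells Afp -0.16 to 0.18 and Mt1 -0.020 to 0.25, with Afp at -0.0060 by DESeq2. The difference for Mt1 was -0.023 with RLE, -0.0075 in Igkv10-96 cells, -0.15 with at most 20% immunoglobulin and -0.33 to 0.46 without 1 mouse. That for Csn3 was 0.60 with limma-voom, and that for Abcg1 -1.07 to 0.24 without 1 mouse.

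In the labels, samples of a number shared only that number. The paper speaks of samples from independent experiments in its monocyte figure, and whether the number marks an experiment is not stated. Deviations of samples with the same number correlated at 0.086 in clonal, -0.066 in other plasma and 0.036 in all other cells. With so few mice these values cannot decide whether the samples were paired. With the replicate number as a block, 28 genes were higher in clonal cells, Csn3 among them (4.75, edgeR adjusted p = 2.23e-06), 5 in other plasma cells, 4 higher and 1 lower in all other cells. In cell types 5 pairs of member and type were called under it, with Mt1 lower in CAR (-1.47) and DC (-1.95). In fits without 1 mouse, the lone mouse of a group is assumed to vary like the other group. With 33 to 119 clonal cells a mouse, Csn3, Prdm6 and Abcg1 rest on few counts.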
